A study of Homo sapiens with 6 samples.

Results

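The BCL2 family of apoptosis regulators was followed through 10 genes: the pro-survival genes MCL1, BCL2L1 and BCL2, the effectors BAX and BAK1, and the BH3-only genes BID, BAD, BCL2L11, PMAIP1 and BBC3. They were chosen by name, with earlier results of these data known. Their 77 annotated transcripts with a value were taken from 140023 matched transcripts of 26425 genes. RNA was sequenced from SUM1315, an established line of triple-negative breast cancer cells with a wild-type genotype label, in 3 libraries of cells held in hypoxia (1% O2 for 24 h) and 3 libraries of cells in normoxia (21% O2). Both groups grew in the same medium with serum, insulin and EGF, and no drug or genetic change set them apart. Nothing in the labels tells separate cultures from repeat preparations, so every p-value rests on a library-to-library spread that may be technical only. It is 1 cell line, and no apoptosis readout, protein level or other cell line was analysed here.

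BCL2 family proteins meet at the mitochondrial outer membrane. The effectors BAX and BAK1 form pores that release cytochrome c and start the caspase cascade, and pro-survival proteins such as BCL2, Bcl-xL and MCL1 hold them in check. BH3-only proteins sense stress and either block the pro-survival proteins or activate the effectors directly. Much of this control is exerted on the proteins, by cleavage, phosphorylation, binding and degradation, which messenger RNA does not show.

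MCL1 and BCL2L1 each give messenger RNAs for a long, pro-survival protein and a short one known to promote death. The sequences below show the splice choice that separates them, as annotated in GENCODE 29 on GRCh38, both genes lying on the minus strand. In MCL1-202, which codes for the 350-residue long protein, exon 1 is joined to exon 2. In MCL1-201, which codes for 271 residues, exon 2 is skipped and exon 1 is joined to exon 3. In BCL2L1-201, the Bcl-xL transcript, the upstream part of the junction ends at chr20:31721655. In BCL2L1-202, the Bcl-xS transcript, it ends 189 bases earlier. The first 25 bases, in lower case, are upstream of each junction, and the 25 in capitals are downstream of it.
MCL1-202: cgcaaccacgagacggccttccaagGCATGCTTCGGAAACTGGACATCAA
MCL1-201: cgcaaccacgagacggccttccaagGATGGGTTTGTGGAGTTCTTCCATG
BCL2L1-201: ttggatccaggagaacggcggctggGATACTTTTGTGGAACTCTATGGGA
BCL2L1-202: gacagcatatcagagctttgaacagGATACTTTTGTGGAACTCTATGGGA
Within each gene 1 side of the junction is shared: upstream in MCL1 and downstream in BCL2L1. The segments that the short forms lack are shown next, with capitals for the longest run of bases that the segments have in common, 9 bases. MCL1 exon 2 (chr1:150578244-150578491) is 248 bases long, which leaves a remainder of 2 on division by 3, so exon 3 is read in another frame when exon 2 is skipped. The BCL2L1 segment (chr20:31721655-31721843) is 189 bases or 63 codons, so the frame is kept. Both stretches code for parts of the BH1 and BH2 regions, which form the groove that binds BH3 peptides.
MCL1 exon 2: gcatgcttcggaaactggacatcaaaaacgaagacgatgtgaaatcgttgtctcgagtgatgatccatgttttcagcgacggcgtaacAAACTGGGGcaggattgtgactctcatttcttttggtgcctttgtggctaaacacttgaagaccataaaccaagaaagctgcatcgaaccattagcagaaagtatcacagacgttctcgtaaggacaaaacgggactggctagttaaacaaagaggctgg
BCL2L1 segment: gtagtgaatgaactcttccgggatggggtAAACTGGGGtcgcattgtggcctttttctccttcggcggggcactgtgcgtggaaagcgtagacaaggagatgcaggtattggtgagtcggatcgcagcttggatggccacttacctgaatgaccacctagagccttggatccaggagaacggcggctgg

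The deposited values are RPKM, reads per kilobase of transcript and per M reads of the library, and were summed over the transcripts of each gene. Library depth, recovered from the smallest steps in the values, was 43.95 to 50.55 M reads in hypoxia and 50.25 to 50.7 M in normoxia. Hypoxia replicate 3 was the shallowest and departed from the other hypoxic libraries in several member transcripts, so values without it are given for the members it moves most. The epithelial genes KRT8, KRT18, KRT19, KRT5, KRT14, EPCAM and CDH1 and the receptor gene ESR1 were at or near 0 in all libraries, at most 0.209 RPKM, as were the blood, endothelial and liver genes PTPRC, CD14, LYZ, PECAM1, VWF and ALB, at most 0.106 RPKM. In contrast, the mesenchymal gene VIM stood at 6307 to 7439 RPKM in hypoxia and 4741 to 4901 RPKM in normoxia. CDH2, the other mesenchymal gene looked at, was low, at 1.80 to 2.72 RPKM in hypoxia and 2.58 to 3.41 RPKM in normoxia. VIM rose (log2 fold change 0.47, limma adjusted p = 0.00130), whereas CDH2 leaned the other way without passing the test (-0.26, limma adjusted p = 0.111). ERBB2, the gene of HER2, was present at 20.2 to 23.7 RPKM in hypoxia and 21.2 to 21.8 RPKM in normoxia. Genes known to respond to low oxygen rose, among them the glucose transporter gene SLC2A1 (log2 fold change 2.88, SE 0.09, adjusted p = 4.14e-09). RPKM is a share of a library's reads, so fewer cells using a gene and less of its RNA per cell cannot be told apart.

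Messenger RNA of the family differed little in size between hypoxia and normoxia: the 10 log2 fold changes lay between -0.35 and 0.19. BID, BCL2 and BAK1 fell, and the other 7 members did not pass the test (limma on log2(RPKM + 1), Benjamini-Hochberg over 11889 genes, threshold 0.05). All 10 members passed the filter of more than 1 RPKM in at least 3 libraries. The count of 3 lowered members compares with 24.4% of all tested genes lowered, and 0 raised members with 12.4% of genes raised, 36.8% of genes being called in either direction. At an unadjusted p under 0.05, 0 members were raised and 5 lowered, beside 15.8% of all genes raised and 32.7% lowered. With limma-voom on estimated reads 1 member was raised and 4 lowered, beside 12.5% and 31.4% of all genes. The members' median log2 fold change was -0.16 and that of all tested genes -0.085. Hypoxic values lay wholly below the normoxic ones in 5 members (35.5% of all genes) and wholly above in 1 (16.4% of genes). The direction of the calls depended on scaling: 1479 genes were raised and 2900 lowered as deposited (66.2% of calls lowered), against 2040 and 1407 (40.8%) with median-of-ratios scaling, 1819 and 1661 (47.7%) with upper-quartile scaling, and 1175 and 4217 (78.2%) with equal sums. BID and BCL2 were lowered under each of these 3 scalings, and BAK1 only with equal sums.

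**Figure D1:**
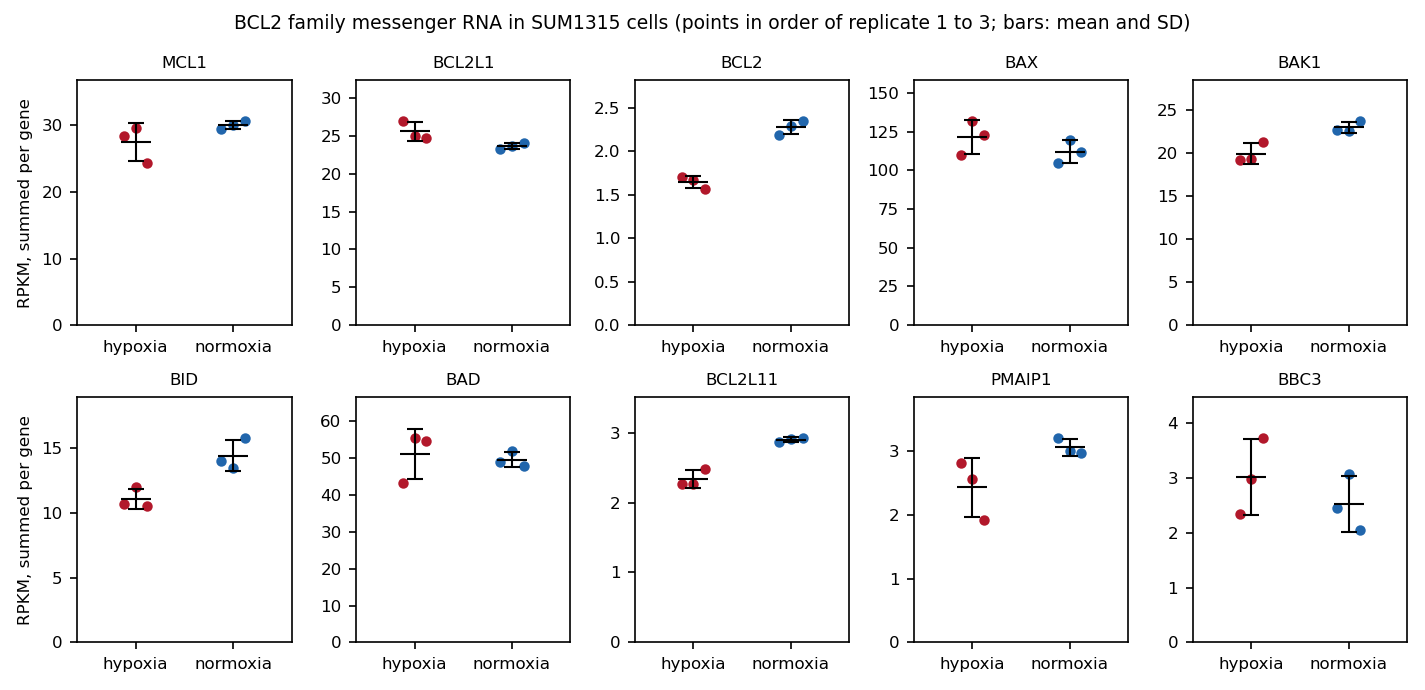
RPKM of each of the 10 genes, summed over its transcripts, in each library of hypoxia (left, red) and normoxia (right, blue), with the mean and SD over 3 libraries per group; each vertical axis starts at 0. The hypoxic points of BCL2, BAK1, BID, BCL2L11 and PMAIP1 all lie below the normoxic points, and those of BCL2L1 all lie above them.

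The pro-survival genes were led by MCL1 and BCL2L1, with BCL2 far below them. MCL1, whose protein turns over quickly (chr1:150574551-150579738), had 28.5, 29.7 and 24.3 RPKM in hypoxia, against 29.5, 30.0 and 30.7 RPKM in normoxia. The groups overlapped, and the low hypoxic value is that of replicate 3. Its log2 fold change was -0.13 (SE 0.08, 95% interval -0.30 to 0.04, limma adjusted p = 0.196), and -0.047 without hypoxia replicate 3 (limma adjusted p = 0.532).

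BCL2L1, the gene of Bcl-xL (chr20:31664452-31723989), had 27.0, 24.99 and 24.8 RPKM in hypoxia, against 23.2, 23.6 and 24.1 RPKM in normoxia. Each hypoxic library was above each normoxic one, by a small margin. The log2 fold change of 0.11 (SE 0.06, 95% interval -0.03 to 0.24) did not pass the test (limma adjusted p = 0.188). It passed with median-of-ratios scaling (0.19, limma adjusted p = 0.0387) and with limma-voom (0.18, adjusted p = 0.0463). The ratio of MCL1 to BCL2L1 within a library, from which any scaling cancels, was 1.06, 1.19 and 0.983 in hypoxia and 1.27 in each of the normoxic libraries. In hypoxia the ratio was lower in all libraries and below 1 in replicate 3, while in normoxia MCL1 was above BCL2L1 by nearly the same factor in every library. This ratio was computed after the levels were known and carries no test.

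BCL2, the founding pro-survival gene of the family (chr18:63123346-63320128), was lowered in hypoxia. It had 1.70, 1.68 and 1.57 RPKM in hypoxia, against 2.19, 2.29 and 2.35 RPKM in normoxia. In summed RPKM the groups were well apart relative to their spread, although the gene rests on only 288 to 594 estimated reads per library. That spread depends on how reads were divided between transcripts of unlike length. The log2 fold change was -0.31 (SE 0.08, 95% interval -0.49 to -0.12, limma adjusted p = 0.0174), a scale that understates changes at this level. It was -0.48 with limma-voom on estimated reads, which weight each transcript by its length. The call on summed RPKM was lost without normoxia replicate 2 (limma adjusted p = 0.0601) or normoxia replicate 3 (0.0671).

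Of the effectors, BAX was the most abundant member and BAK1 was lower in hypoxia. BAX (chr19:48954815-48961798), which moves from the cytosol to mitochondria when activated, had 110.1, 132 and 123 RPKM in hypoxia, against 105, 119.5 and 112 RPKM in normoxia. The groups overlapped, and the log2 fold change was 0.11 (SE 0.07, 95% interval -0.05 to 0.28, limma adjusted p = 0.244).

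BAK1 (chr6:33572547-33580293), which resides in the outer membrane, had 19.1, 19.3 and 21.3 RPKM in hypoxia, against 22.6, 22.5 and 23.7 RPKM in normoxia. Every hypoxic value was below every normoxic one, with hypoxia replicate 3 nearest to normoxia. Its log2 fold change was -0.20 (SE 0.07, 95% interval -0.34 to -0.05, limma adjusted p = 0.0367). This call was the least stable of the 3: it was lost in 9 of 15 alternatives, among them median-of-ratios scaling (limma adjusted p = 0.201) and upper-quartile scaling (0.161). Leaving out hypoxia replicate 1 (0.0717) or 2 (0.0727), or normoxia replicate 1 (0.0947), 2 (0.0930) or 3 (0.141), also ended it.

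Among the BH3-only genes BID fell and the other 4 did not pass the test. BID (chr22:17734138-17774770), whose protein is cut by caspase-8 and links death receptors to mitochondria, had 10.7, 11.96 and 10.5 RPKM in hypoxia, against 14.01, 13.5 and 15.7 RPKM in normoxia. All hypoxic values were below all normoxic ones. The log2 fold change was -0.35 (SE 0.08, 95% interval -0.53 to -0.17, limma adjusted p = 0.00740), and the call was lost in 1 of 15 alternatives, with no filter on low values (limma adjusted p = 0.0532).

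BAD (chr11:64269830-64284704), which growth factor kinases hold inactive, had 43.2, 55.4 and 54.6 RPKM in hypoxia, against 48.9, 51.9 and 47.9 RPKM in normoxia. The hypoxic values lay on both sides of the normoxic ones. Hypoxia against normoxia gave a log2 fold change of 0.03 (SE 0.09, 95% interval -0.16 to 0.23, limma adjusted p = 0.787), and its sign turned with equal sums and without hypoxia replicate 2 or 3. BAD overlaps GPR137 on the opposite strand over 404 bases of exon, and the library kit does not mark strand, so their reads there cannot be told apart.

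BCL2L11, the gene of BIM (chr2:111119378-111168447), a potent activator that binds all pro-survival proteins, narrowly missed the threshold. It had 2.27, 2.26 and 2.49 RPKM in hypoxia, against 2.87, 2.91 and 2.92 RPKM in normoxia. The groups did not overlap, and the log2 fold change was -0.23 (SE 0.08, 95% interval -0.41 to -0.04, limma adjusted p = 0.0529), on a scale that understates changes at this level. It passed in 4 of 14 alternatives: equal sums (limma adjusted p = 0.0232), protein-coding transcripts only (0.0346), limma-voom (-0.48, adjusted p = 0.00380) and without hypoxia replicate 3 (0.0437). The limma-voom value weights each transcript by its length, so it is not the change of summed RPKM on another scale. It depends on how reads were divided among transcripts that were all under the filter, among them BCL2L11-221 of 5224 bases. The long noncoding gene MIR4435-2HG overlaps BCL2L11 on the opposite strand over 727 bases, and was raised, at 16.5 ± 0.448 RPKM in hypoxia and 12.3 ± 0.444 RPKM in normoxia (SD, n = 3 each, log2 fold change 0.40, limma adjusted p = 0.00139). The part of shared reads in the BCL2L11 values was not tested.

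PMAIP1 and BBC3, the genes of NOXA and PUMA, are classical p53 targets. PMAIP1 (chr18:59899948-59904306), whose protein binds mainly MCL1, had 2.81, 2.56 and 1.91 RPKM in hypoxia, against 3.20, 2.99 and 2.96 RPKM in normoxia. The groups did not overlap, with hypoxia replicate 3 the lowest. The log2 fold change was -0.25 (SE 0.11, 95% interval -0.49 to -0.01, limma adjusted p = 0.0866). Without hypoxia replicate 1 it passed, at -0.33 (limma adjusted p = 0.0436), and without hypoxia replicate 3 it was -0.14 (limma adjusted p = 0.246).

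BBC3 (chr19:47220822-47232766) had 2.34, 2.98 and 3.73 RPKM in hypoxia, against 2.44, 3.07 and 2.05 RPKM in normoxia. The groups overlapped widely. On the log2 scale the change was 0.19 (SE 0.14, 95% interval -0.12 to 0.49, limma adjusted p = 0.308), the widest interval of the members, from 174 to 278 estimated reads per library. Without hypoxia replicate 3 it was 0.061 (limma adjusted p = 0.745).

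**Figure D2:**
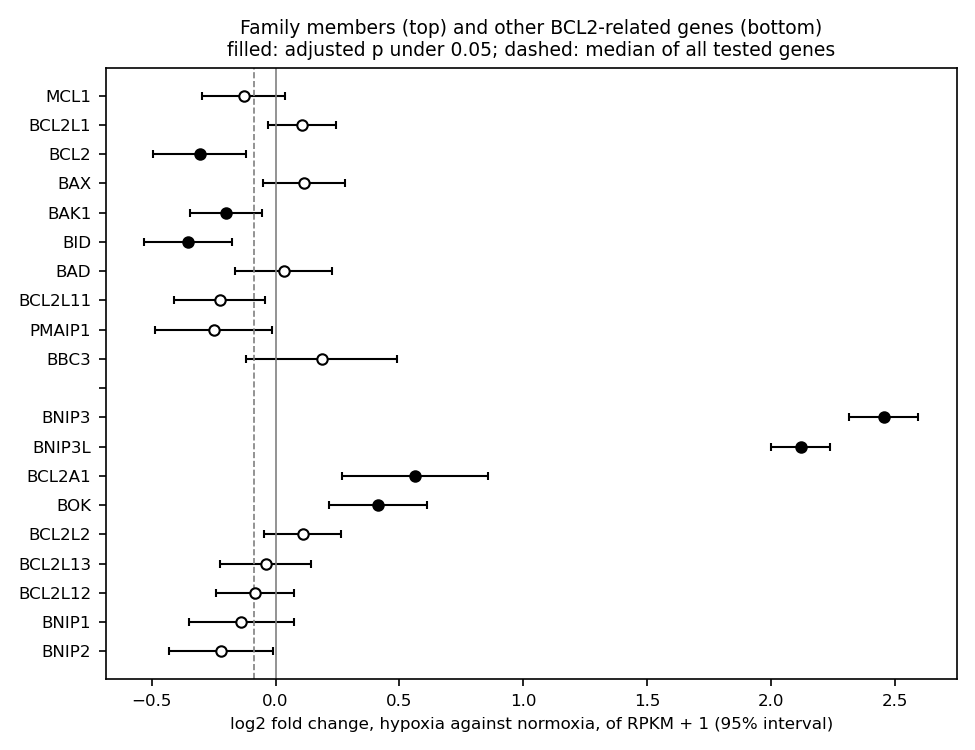
Log2 fold changes (hypoxia against normoxia) of RPKM + 1 with 95% intervals (limma) for the 10 members (top) and the 9 tested genes of the other BCL2-related list (bottom); filled points passed an adjusted p of 0.05, and the dashed line is the median of all tested genes. Among the members BCL2, BAK1 and BID lie below 0 and are filled, while MCL1, BCL2L11 and PMAIP1 also lie below 0 and are open. BNIP3 and BNIP3L stand apart at 2.45 and 2.12.

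The order of levels was alike in both conditions at the top and unclear at the bottom. The 10 genes summed to 266 ± 17.6 RPKM in hypoxia and 264 ± 9.25 RPKM in normoxia (SD, n = 3 each), of which BAX made up 45.7% in hypoxia and 42.5% in normoxia. BAD followed, then MCL1 and BCL2L1, then BAK1 and BID. MCL1 and BCL2L1 overlapped in hypoxia (27.5 ± 2.78 and 25.6 ± 1.21 RPKM) but not in normoxia (30.1 ± 0.582 and 23.6 ± 0.443 RPKM). BCL2L1 and BAK1 were apart in hypoxia, where BAK1 averaged 19.9 ± 1.19 RPKM, and overlapped in normoxia, where it averaged 23.0 ± 0.644 RPKM. BBC3, PMAIP1, BCL2L11 and BCL2 were all under 4 RPKM. In hypoxia BBC3, PMAIP1 and BCL2L11 overlapped one another and BCL2 lay below all 3. In normoxia BBC3 overlapped each of the others, PMAIP1 lay narrowly above BCL2L11, and BCL2 lay below both.

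Summed by role, the groups of genes differed between conditions by less than the SD of the hypoxic libraries. The pro-survival and BH3-only sums and the ratio below differed by more than the narrower normoxic SD. Pro-survival genes summed to 54.7 ± 3.51 RPKM in hypoxia and 56.0 ± 1.10 RPKM in normoxia (SD, n = 3 each). Effectors summed to 142 ± 11.2 RPKM in hypoxia and 135 ± 7.28 RPKM in normoxia. The BH3-only genes, mostly BAD, summed to 69.9 ± 7.54 RPKM in hypoxia and 72.5 ± 1.65 RPKM in normoxia. The ratio of pro-survival to effector RPKM was 0.389 ± 0.0473 in hypoxia and 0.415 ± 0.0194 in normoxia. These sums count messenger RNA only, and were not tested.

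At the level of transcripts, 26 of the 77 passed the same filter and 0 were called, where 3.5% of 26790 tested transcripts were raised, 3.22% lowered and 6.72% called in either direction (limma, Benjamini-Hochberg). At an unadjusted p under 0.05 there was 1 raised member transcript (3.85% of those tested) and 4 lowered ones (15.4%), beside 9.59% raised and 16.8% lowered of all tested transcripts. Values of single transcripts are estimates in which reads shared by isoforms were divided, so they vary more than gene sums.

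The long form made up most MCL1 messenger RNA in both conditions. MCL1-202 had 25.9, 26.7 and 18.8 RPKM in hypoxia, against 26.1, 25.8 and 27.5 RPKM in normoxia (log2 fold change -0.16, SE 0.13, limma adjusted p = 0.455). MCL1-201 had 1.86, 2.32 and 4.87 RPKM in hypoxia, against 2.66, 3.24 and 2.38 RPKM in normoxia (0.03, SE 0.26, limma adjusted p = 0.959). Hypoxia replicate 3 had the least of the long and the most of the short form of all 6 libraries. The long share of both forms was 93.3%, 92.0% and 79.4% in hypoxia, against 90.7%, 88.8% and 92.0% in normoxia. The difference of -2.31 percentage points was within the spread (two-sided exact permutation p = 0.9, where 3 against 3 allows no p below 0.1), and without hypoxia replicate 3 it was 2.11. The hypoxic libraries thus did not move in one direction, and the sign of the mean difference rests on that 1 library.

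For BCL2L1, the transcript of Bcl-xL was above that of Bcl-xS in every library. BCL2L1-201 had 11.9, 10.2 and 10.9 RPKM in hypoxia, against 8.88, 10.4 and 8.98 RPKM in normoxia (log2 fold change 0.20, SE 0.10, limma adjusted p = 0.223). BCL2L1-202 had 2.87, 4.12 and 3.02 RPKM in hypoxia, against 2.50, 2.27 and 1.97 RPKM in normoxia (0.41, SE 0.14, limma adjusted p = 0.124). The Bcl-xS transcript was higher in every hypoxic library than in any normoxic one, as were 11.6% of all tested transcripts, without passing the test. Among transcripts with a complete coding sequence, the Bcl-xL share was 80.6%, 71.3% and 78.5% in hypoxia, against 78.2%, 82.1% and 82.6% in normoxia. The difference of -4.16 percentage points had a two-sided exact permutation p of 0.3.

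Much BCL2L1 signal was assigned to transcripts whose annotated coding sequence is cut short at its 3′ end. BCL2L1-207 averaged 5.01 ± 0.422 RPKM in hypoxia and 5.63 ± 0.612 RPKM in normoxia (SD, n = 3 each, log2 fold change -0.14, limma adjusted p = 0.449). BCL2L1-209 averaged 2.96 ± 0.623 RPKM in hypoxia and 3.67 ± 0.143 RPKM in normoxia (-0.25, limma adjusted p = 0.284). BCL2L1-204 averaged 2.44 ± 0.272 RPKM in hypoxia and 1.88 ± 0.284 RPKM in normoxia (0.26, limma adjusted p = 0.239). Like Bcl-xS, BCL2L1-204 was higher in every hypoxic library than in any normoxic one, by a narrow margin (2.27 against 2.20 RPKM at the nearest). BCL2L1-204 and BCL2L1-209 hold all 189 bases of the segment that Bcl-xS lacks and BCL2L1-207 holds 168 of them, so by this segment they group with the long form. With every transcript that holds the segment counted as long, the long share was 89.2%, 83.3% and 87.6% in hypoxia, against 89.2%, 90.3% and 91.8% in normoxia. The difference was -3.71 percentage points (two-sided exact permutation p = 0.2), of the same sign as with complete coding sequences. This grouping was chosen after the data were seen.

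**Figure D3:**
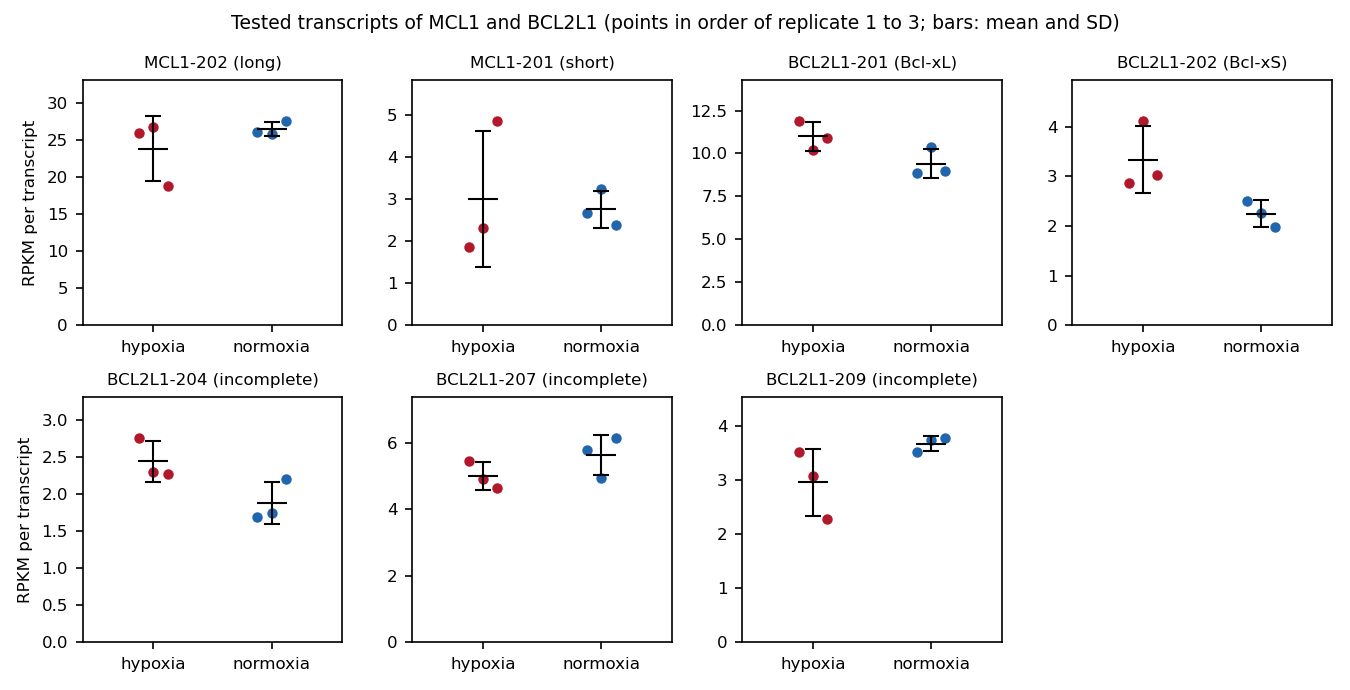
RPKM of each tested MCL1 and BCL2L1 transcript per library, in hypoxia (left, red) and normoxia (right, blue), with the mean and SD over 3 libraries per group; each vertical axis starts at 0. Hypoxia replicate 3, the rightmost red point, stands apart for both MCL1 forms. BCL2L1-202 and, narrowly, BCL2L1-204 are higher in all hypoxic libraries, as are 11.6% of all tested transcripts.

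Other members were carried by a few transcripts each. BAX-201, which codes for 218 residues, averaged 60.9 ± 5.02 RPKM in hypoxia and 56.7 ± 1.43 RPKM in normoxia (SD, n = 3 each). It held 50.1% of BAX RPKM in hypoxia and 50.6% in normoxia. BAX-202, which codes for the 192-residue BAX alpha, averaged 45.1 ± 5.88 RPKM in hypoxia and 39.2 ± 3.72 RPKM in normoxia. BAD-201 averaged 35.7 ± 6.65 RPKM in hypoxia and 34.1 ± 1.55 RPKM in normoxia, and BAD-203, with a coding sequence of the same length, 9.97 ± 1.81 RPKM in hypoxia and 11.2 ± 1.31 RPKM in normoxia. BAK1-202 carried nearly all BAK1 signal, at 19.8 ± 1.18 RPKM in hypoxia and 22.7 ± 0.776 RPKM in normoxia. For BAX and BAD the groups overlapped, while BAK1-202 was lower in every hypoxic library, as were 22.5% of all tested transcripts.

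BID was spread over several transcripts. BID-215, which codes for the full 195 residues, averaged 3.70 ± 0.237 RPKM in hypoxia and 4.82 ± 0.215 RPKM in normoxia (SD, n = 3 each, log2 fold change -0.31, limma adjusted p = 0.0964). BID-209, with the same coding length, averaged 3.36 ± 0.546 RPKM in hypoxia and 3.42 ± 0.385 RPKM in normoxia. BID-204 and BID-203, which code for 99 residues and were picked after their values were seen, were lower in every hypoxic library (log2 fold changes -0.41 and -0.42, limma adjusted p = 0.114 and 0.0679). Among all tested transcripts, 22.5% had every hypoxic value below every normoxic one. The lower BID total was thus spread over 3 transcripts, none of which passed alone.

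BCL2 and BCL2L11 transcripts were near or under the filter. BCL2-201 had 0.691, 0.668 and 1.14 RPKM in hypoxia, against 1.11, 1.15 and 1.21 RPKM in normoxia. BCL2-202, which codes for the same 239 residues, had 0.835, 0.814 and 0.298 RPKM in hypoxia, against 0.802, 0.926 and 0.899 RPKM in normoxia. In hypoxia replicate 3 reads were again divided differently, although its BCL2 total in RPKM was close to that of the other hypoxic libraries. BCL2-201 is 3209 and BCL2-202 7461 bases long, so the same reads give more RPKM on BCL2-201. The close RPKM totals therefore do not show close read totals. None of the 20 BCL2L11 transcripts passed the filter. BCL2L11-206, which codes for the 198-residue BimEL, had 0.919, 0.653 and 0.462 RPKM in hypoxia, against 0.747, 0.516 and 0.429 RPKM in normoxia. BCL2L11-221, which codes for 169 residues, had 0.146, 0.258 and 0.178 RPKM in hypoxia, against 0.798, 0.690 and 0.847 RPKM in normoxia. The BimEL transcript overlapped between groups, whereas BCL2L11-221 was far lower in each hypoxic library, from 39 to 222 estimated reads. Of the transcripts over the filter, 22.5% were lower in every hypoxic library. In the fit with no filter BCL2L11-221 had a log2 fold change of -0.57 (limma adjusted p = 0.0804).

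PMAIP1-202, the 54-residue NOXA transcript, averaged 2.39 ± 0.529 RPKM in hypoxia and 3.02 ± 0.0708 RPKM in normoxia (SD, n = 3 each). BBC3-203, which codes for the 193-residue PUMA alpha, averaged 2.04 ± 0.675 RPKM in hypoxia and 1.89 ± 0.311 RPKM in normoxia. These transcripts held most of the signal of their genes.

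The largest responses among BCL2-related genes lay outside the 10 members. Of 16 other family genes, 9 were tested, 4 rose and 0 fell (limma; at an unadjusted p under 0.05, 4 and 1; with limma-voom, 4 and 1), with a median log2 fold change of 0.11. Among all tested genes 12.4% rose and 24.4% fell (limma), 15.8% and 32.7% at an unadjusted p under 0.05, and 12.5% and 31.4% with limma-voom. BNIP3 and BNIP3L, mitophagy receptors and known targets of hypoxia-inducible factors, together summed to 251 ± 8.83 RPKM in hypoxia and 48.5 ± 1.80 RPKM in normoxia (SD, n = 3 each), with log2 fold changes of 2.45 and 2.12 (limma adjusted p = 9.48e-10 for each). In hypoxia this pair thus came close to the sum of all 10 members. BOK, a relative of BAX and BAK1, averaged 21.3 ± 2.97 RPKM in hypoxia and 15.6 ± 0.450 RPKM in normoxia (0.41, limma adjusted p = 0.00557). BCL2A1, a pro-survival gene, averaged 1.65 ± 0.268 RPKM in hypoxia and 0.806 ± 0.313 RPKM in normoxia, from 25 to 97 estimated reads per library. It passed the filter only through its hypoxic libraries, so its call carries no weight; of the other 8 genes 3 rose and 0 fell, with a median of 0.035. BIK, BMF, HRK, BCL2L15 and BLID were under the filter, and BCL2L10 and BCL2L14 were not analysed here. BNIP3L overlaps PNMA2 on the opposite strand.

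Downstream of the mitochondria, 1 of 12 tested genes for the apoptosome, caspases and released proteins rose and 3 fell (all genes: 12.4% and 24.4%). The list median log2 fold change was -0.02. CYCS, cytochrome c, averaged 63.6 ± 9.32 RPKM in hypoxia and 91.1 ± 3.49 RPKM in normoxia (SD, n = 3 each, log2 fold change -0.52, limma adjusted p = 0.00205). AIFM1, apoptosis-inducing factor, averaged 24.4 ± 1.16 RPKM in hypoxia and 31.1 ± 0.304 RPKM in normoxia (-0.34, limma adjusted p = 0.00216). CASP8, the initiator that cleaves BID, rose (0.39, limma adjusted p = 0.0186), a call lost in 4 of 14 alternatives. Both proteins released from mitochondria that were called, CYCS and AIFM1, also serve respiration.

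The 5 tested inhibitor of apoptosis genes had 0 calls in either direction (limma; unadjusted p under 0.05, 0 raised and 1 lowered; limma-voom, 0 and 1), with a median of -0.11. Among all tested genes 36.8% were called in either direction. BIRC5, or survivin, averaged 78.2 ± 6.04 RPKM in hypoxia and 84.4 ± 2.84 RPKM in normoxia, and BIRC2, or cIAP1, 22.6 ± 3.11 RPKM in hypoxia and 23.9 ± 1.78 RPKM in normoxia (SD, n = 3 each). The outer membrane channel genes VDAC1, VDAC2 and VDAC3 also had 0 calls (limma; 0 at an unadjusted p under 0.05; limma-voom, 0 raised and 1 lowered), with a median of -0.11. VDAC1 averaged 160.0 ± 4.98 RPKM in hypoxia and 161 ± 2.41 RPKM in normoxia, and VDAC2 averaged 138 ± 5.68 RPKM in hypoxia and 150.2 ± 3.53 RPKM in normoxia.

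On the death receptor side, 3 of 10 tested genes rose and 2 fell (all genes: 12.4% and 24.4%), with a median of -0.13. TNFRSF10D, a decoy receptor for the death ligand TRAIL, rose (log2 fold change 0.42, SE 0.08, limma adjusted p = 0.00280), as did the adaptor TRADD (0.40, SE 0.10, 0.00851) and CFLAR, an inhibitor of caspase-8 activation (0.23, SE 0.07, 0.0186). TNFRSF21, or death receptor 6, fell to 3.42 ± 0.168 RPKM in hypoxia, against 6.001 ± 0.102 RPKM in normoxia (SD, n = 3 each, -0.66, limma adjusted p = 0.000168). TNFRSF1A, a TNF receptor, fell by 0.20 on the log2 scale (limma adjusted p = 0.0195). The calls for CFLAR and TNFRSF1A were lost in 4 and 6 of 15 alternatives. TRADD overlaps FBXL8 on the opposite strand.

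Known regulators of BH3-only genes showed 1 raised and 2 lowered of 10 tested (all genes: 12.4% and 24.4%), with a median of -0.05. DDIT3, the stress factor CHOP, averaged 17.0 ± 1.18 RPKM in hypoxia and 13.1 ± 1.15 RPKM in normoxia (SD, n = 3 each, log2 fold change 0.35, limma adjusted p = 0.00742). It overlaps the more abundant MARS1 on the opposite strand, so its level is uncertain. HIF1A fell (-0.29, limma adjusted p = 0.00756), and E2F1 fell (-0.17, limma adjusted p = 0.0315), a call lost in 6 of 15 alternatives.

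Other p53 target genes went both ways: 4 of 16 tested rose and 4 fell (all genes: 12.4% and 24.4%), with a median of -0.09. CDKN1A, the cell cycle inhibitor p21, averaged 6.23 ± 0.962 RPKM in hypoxia and 2.27 ± 0.132 RPKM in normoxia (SD, n = 3 each, log2 fold change 1.14, limma adjusted p = 2.31e-05). PHLDA3, a repressor of AKT, rose (0.75, limma adjusted p = 0.000728), as did TP53I3 (0.33, 0.00472) and DDB2 (0.32, 0.00635). AEN, a nuclease, averaged 25.1 ± 1.31 RPKM in hypoxia and 35.3 ± 0.723 RPKM in normoxia (-0.48, limma adjusted p = 0.000311). The kinase gene PLK3 (-0.36, limma adjusted p = 0.00988), the ribonucleotide reductase subunit gene RRM2B (-0.26, 0.0361) and the DNA repair gene XPC (-0.19, 0.0406) also fell. The RRM2B call was lost in 8 of 15 alternatives.

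Genes for MCL1 turnover had the lowest list median: 8 of 10 tested fell and 0 rose (limma; 8 and 0 at an unadjusted p under 0.05 and with limma-voom), with a median of -0.32 beside -0.085 for all genes. Of all tested genes 24.4% fell (limma), 32.7% at an unadjusted p under 0.05 and 31.4% with limma-voom. The list was chosen with earlier results of these data known, so the count beside these shares is a description only. HUWE1, a ubiquitin ligase for MCL1, averaged 16.7 ± 1.23 RPKM in hypoxia and 22.3 ± 1.17 RPKM in normoxia (SD, n = 3 each, log2 fold change -0.39, limma adjusted p = 0.00247). MARCHF5, a mitochondrial ubiquitin ligase, fell (-0.33, limma adjusted p = 0.00613), as did the ligase scaffold CUL5 (-0.41, 0.00988). The list mixes ligases with the deubiquitinases USP9X and USP13, known to stabilise MCL1, which also fell (-0.26 and -0.41, limma adjusted p = 0.0427 and 0.0126). The count fell to 2 when low values were kept, was 4 after median-of-ratios scaling and 5 after upper-quartile scaling, and leaving out normoxia replicate 1, 2 or 3 gave 5, 4 and 4.

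Splicing regulators known to act on MCL1 or BCL2L1 included 2 raised and 4 lowered of 18 tested (all genes: 12.4% and 24.4%). The list median was -0.09. RBM25, which acts on the Bcl-x splice site choice, averaged 26.7 ± 2.49 RPKM in hypoxia and 35.1 ± 1.54 RPKM in normoxia (SD, n = 3 each, log2 fold change -0.38, limma adjusted p = 0.00326). TRA2B (-0.24, limma adjusted p = 0.00453), SRSF10 (-0.24, 0.0198) and SF3B1 (-0.23, 0.0465) also fell. HNRNPA1 (0.24, limma adjusted p = 0.00900) and SRSF5 (0.19, 0.0260) rose. The calls for SRSF10 and SRSF5 were each lost in 6 of 15 alternatives, and with equal sums 1 gene was raised and 9 were lowered.

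**Figure D4:**
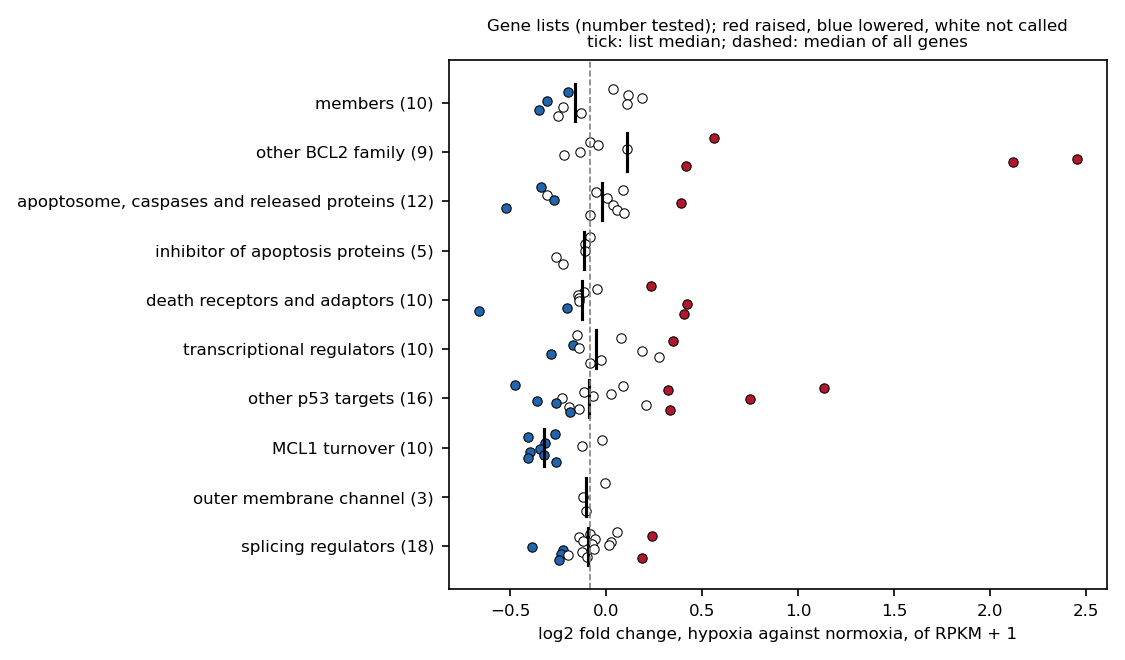
Log2 fold changes (hypoxia against normoxia) of RPKM + 1 for each tested gene in 10 lists; red points rose and blue points fell by the limma test with a threshold of 0.05, thick ticks are list medians and the dashed line is the median of all tested genes. BNIP3 and BNIP3L stand apart on the right, and the MCL1 turnover list has its median at -0.32.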

How the data were processed

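RNA was measured in 3 hypoxic and 3 normoxic libraries of SUM1315 cells. Per the submitters' processing notes, Trimmomatic, HISAT2, SAMtools and Partek were used with GRCh38 (hg38). Which annotation release and which RNA selection were used is not given in the sources used here. RPKM values were deposited by the authors for 165956 Ensembl transcripts. The unit was inferred from genes with 1 annotated transcript, whose low values multiplied by length pile up at whole multiples of 1 step per library. At the step that matched best, 79.8% to 80.8% of 3255 to 3502 such values per library lay within 0.1 of a whole multiple. Reads shared by isoforms were divided, so most values are not whole reads. One read in 2 kb equals 0.00986 to 0.0114 RPKM, and this precision covers counting error only.

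Transcripts were joined by identifier to GENCODE 29: 140023 (84.4%) matched, and the rest, with 3.43% to 3.67% of RPKM, were left out. Symbols came from a table of current names. RPKM was summed per gene, and limma 3.58.1 (R 4.3.3), allowing for a trend of variance with level, was fitted to log2(RPKM + 1) without a block. Genes or transcripts needed more than 1 RPKM in 3 or more libraries. Benjamini-Hochberg adjustment ran over all features, with a threshold of 0.05. Intervals of 95% are limma's. Isoform shares were compared by exact permutation tests (scipy 1.17.1).

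Members and lists were chosen with earlier results of these data known. Named beyond the members were up to 3 raised and 3 lowered genes per list with the lowest adjusted p, or the 2 most abundant where none was called, and the 1 or 2 leading transcripts of each member. BCL2A1, DDB2, XPC, SF3B1, USP9X, USP13, BID-203 and BID-204 were added after their values were seen. For the genes among these, stability under the alternatives is not given. The values of 1 gene that this rule names are not reported here.

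Pearson's r across genes was 0.993 to 0.995 between hypoxic and 0.997 to 0.998 between normoxic replicates, and no libraries agreed within counting noise. On simulated data for this comparison with 11662 genes, 74% and 68% of genes changed by log2 0.5 and -0.5 were recovered, 100% and 98% of those changed by 1 and -1, and 3.95% of calls were false. For 25515 transcripts these shares were 30% and 36%, then 72% and 70%, with 5.45% of calls false. Each change was given to 50 features, all above the levels of BCL2, BCL2L11, PMAIP1 and BBC3. The changed features were thus a far smaller share than the 36.8% of genes called in the data. Simulated noise was normal, with the spread seen between these libraries. The shares recovered and falsely called therefore need not hold for the real comparison. Changes as small as those of the members, -0.351 to 0.186, were not simulated, so their recovery is not known. Alternatives tried were scaling by median of ratios, upper quartile or equal sums, no filter, a filter of 5 RPKM, a pseudocount of 0.1, protein-coding transcripts only, limma-voom on estimated reads, a replicate block and leaving out each library.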

Additional observations from a re-analysis of the deposited data

How the results depend on the processing

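The 10 members kept the sign of their log2 fold change under all alternatives run, except BAD, which was -0.034 with equal sums and -0.029 to 0.15 when single libraries were left out. Raised members numbered 1 with median-of-ratios scaling and 1 with limma-voom. Lowered members numbered 1 with no filter and 1 to 4 when libraries were left out. Lowered genes numbered 1367 with no filter, 1661 with upper-quartile scaling, 1407 with median-of-ratios scaling and 1521 to 2852 when libraries were left out. Raised transcripts numbered 270 with no filter and 333 to 743 when libraries were left out. For transcripts lowered, the count was 158 with no filter, 1394 with a filter of 5 RPKM, 351 with median-of-ratios scaling and 51 to 959 when libraries were left out. The cause of these moves was not tested.

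Replicate numbers carry no stated pairing, and the deviations of same-numbered libraries correlated at 0.089, 0.03 and -0.227. When that number entered as a block, 2 members were lowered, BAK1 being lost (limma adjusted p = 0.0622), and 451 transcripts were raised and 98 lowered.

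The MCL1 long share differed by -4.84 to 2.11 points when libraries were left out, turning positive without hypoxia replicate 3 (2.11). The BCL2L1 long share turned to 2.74 points with all annotated transcripts in the denominator, which counts cut-short transcripts that hold the long segment as not long. It was -3.71 points with those counted as long, an alternative added after the data were seen, and ranged from -6.06 to -1.39 when libraries were left out. Log2 fold changes near 0 also turned: VDAC1 was 0.081 with median-of-ratios and 0.061 with upper-quartile scaling and -0.021 to 0.021 over left-out libraries. BID-209 was 0.037 with median-of-ratios scaling and -0.12 to 0.041 over left-out libraries. The other ranges over left-out libraries were -0.16 to 0.028 for BIRC2, -0.28 to 0.24 for MCL1-201, -0.063 to 0.20 for BAD-201 and -0.12 to 0.15 for BBC3-203.

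Counts of lowered genes per list ranged over all alternatives from 2 to 9 for MCL1 turnover and for splicing regulators, 2 to 5 for p53 targets, 1 to 3 for death receptors and for regulators of BH3-only genes, 1 to 4 for caspases, 0 to 2 for the outer membrane channel, and 0 to 1 for inhibitors of apoptosis and for other family genes. Counts of raised genes ranged from 2 to 4 for other family genes, 0 to 1 for caspases, and 0 to 2 for regulators of BH3-only genes and for splicing regulators.

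Upper-quartile scaling, equal sums, protein-coding transcripts only and limma-voom were run for genes and not for transcripts. BCL2, BCL2L11, PMAIP1 and BBC3 had the lowest levels and the fewest reads of the members; how far depth limits them was not tested.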
